A study of Mus musculus with 15 samples.

Results

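The expression difference between CD4-bearing and CD8 single-positive mature thymocytes was compared between mutant and wild-type (WT) cells of the mouse. For each gene the mutant difference is the log2 level in Thpok-RKF- CD4+CD8+ cells minus that in Thpok-RKF- CD8 single-positive (SP) cells, and the WT difference is the log2 level in WT CD4 SP cells minus that in WT CD8 SP cells. The difference of differences is the mutant difference minus the WT difference, so a value of 0 means that the CD4-linked change was the same size in both genotypes. It used 12 of the 15 libraries of the series and 4 of its 5 groups, with 3 libraries in each group. The Thpok-RKF- donors were Thpok fl/fl Runx3 fl/dYFP Cd4-Cre+, that is, both Thpok alleles and 1 Runx3 allele were floxed, the other Runx3 allele was the dYFP allele, and Cre was driven by Cd4, which is switched on in developing thymocytes. They are called mutant from here on, and what RKF stands for is not explained by the labels. WT cells carried CD45.1 and CD45.2 and were the competitors in mixed marrow chimeras, in which donor marrow was given to irradiated hosts. All animals were C57BL/6. Hosts of both mutant groups and of the WT CD4 SP group were B2m-/- and lack the light chain of MHC class I. Hosts of the WT CD8 SP group were I-Ab-/- and lack a chain of MHC class II, so within WT the host and the lineage cannot be told apart. Between mutant and WT CD8 SP cells the host and the genotype cannot be told apart, and the difference of differences carries both limits. All 4 sort gates took TCRb-high cells low for CD44, CD24 and CD69. The CD4-bearing mutant group also carried CD8, so it is not a CD4 SP group, and Cd4, Cd8a and Cd8b1 were part of the gates and are no finding here. Nothing in the labels tells whether the 3 libraries of a group are from 3 animals, and the p-values therefore cover the spread between libraries, which may be technical.

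Thpok, encoded by Zbtb7b, is a zinc finger repressor needed by MHC class II-restricted thymocytes to become CD4 helper cells; without it such cells turn towards the CD8 cytotoxic fate. Runx3 is the transcription factor that works on the other side: in cells of the CD8 lineage it silences Cd4 and Zbtb7b and supports cytotoxic genes. A mature WT thymus therefore holds an axis from helper genes, high in CD4 SP cells, to cytotoxic genes, high in CD8 SP cells, and the comparison asks what is left of that axis between CD4-bearing and CD8 SP cells when both factors are targeted.

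Gene totals ran from 37311823 to 48607260 counts in the 15 libraries of the series, and 16550 of 53762 genes passed the filter on low counts. Levels are CPM, read counts scaled to a common library size with edgeR. Zbtb7b had 2.77, 2.95 and 1.67 CPM in mutant CD4+CD8+ and 2.11, 2.51 and 1.92 CPM in mutant CD8 SP libraries, against 64, 79.2 and 27.4 CPM in WT CD4 SP and 0.239, 0.376 and 0.0933 CPM in WT CD8 SP libraries. It was thus far below WT CD4 SP cells in both mutant groups. Runx3 had 295, 267 and 274 CPM in mutant CD4+CD8+ and 306, 247 and 247 CPM in mutant CD8 SP libraries, against 30.8, 32.4 and 23.1 CPM in WT CD4 SP and 220.2, 202 and 194 CPM in WT CD8 SP libraries. Which exons of Runx3 are floxed is not given in the sources used here, so this count over the whole gene does not check the deletion. Ms4a1, Siglech and Foxn1, defining markers of B cells, plasmacytoid dendritic cells and thymic epithelium, had 0 counts in all 12 libraries. Other markers were present in all libraries, or high in single ones or in 1 group. On the list of thymic stroma and epithelium, Pecam1, Epcam, Col1a1 and Krt8 had 124400, 4099, 459 and 65 counts over the 12 libraries. Ighm, the heavy chain of IgM on the B cell list, had 437 to 688 CPM in mutant CD4+CD8+ and 713 to 985 CPM in mutant CD8 SP libraries, against 536 to 803 CPM in WT CD4 SP and 766 to 1092 CPM in WT CD8 SP libraries. Ighd, that of IgD, had 0.0443 to 1.02 CPM in mutant CD4+CD8+ and 0.0432 to 0.646 CPM in mutant CD8 SP libraries, against 0.0685 to 0.352 CPM in WT CD4 SP and 33.4 to 52.1 CPM in WT CD8 SP libraries. Lyz2, a myeloid marker, reached 28.4 CPM in WT CD4 SP replicate 1 and 4.43 CPM in the next highest library, mutant CD8 SP replicate 2. Cd79b, a B cell receptor chain, had 4.31, 7.6 and 5.89 CPM in mutant CD4+CD8+ and 6.83, 5.47 and 6.2 CPM in mutant CD8 SP libraries, against 1.6, 1.68 and 0.434 CPM in WT CD4 SP and 41.2, 39.1 and 42.8 CPM in WT CD8 SP libraries. Replicate 1 of the mutant CD4+CD8+ group stood apart from its 2 fellows, with Foxp3 at 50.1, 24 and 22.4 CPM and Cd4 at 397, 214 and 234 CPM in replicates 1, 2 and 3. In bulk libraries such as these, fewer cells of a type and less RNA per cell cannot be told apart.

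Far fewer genes were called between the mutant groups than between the WT groups. The genes called in WT are not only helper and cytotoxic genes, and the host differs with the lineage there. The mutant difference was called, at an adjusted p below 0.05 in the edgeR quasi-likelihood test, for 403 of 16550 genes (2.44%), of which 284 (1.72%) were higher and 119 (0.719%) were lower in CD4+CD8+ cells. For comparison, the WT difference was called for 2981 genes (18%), with CD4 SP cells higher in 1277 (7.72%) and lower in 1704 (10.3%). The difference of differences was called for 2360 genes (14.3%), 1401 above 0 (8.47%) and 959 below 0 (5.79%). The count for the mutant difference rested on each mutant library: it was 216 without mutant CD8 SP replicate 3, 231 without mutant CD8 SP replicate 2, and 261, 257 and 263 without mutant CD4+CD8+ replicates 1, 2 and 3. DESeq2 called 771 genes in the mutant difference. The count for the WT difference was 1908 without WT CD8 SP replicate 2.

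**Figure D1:**
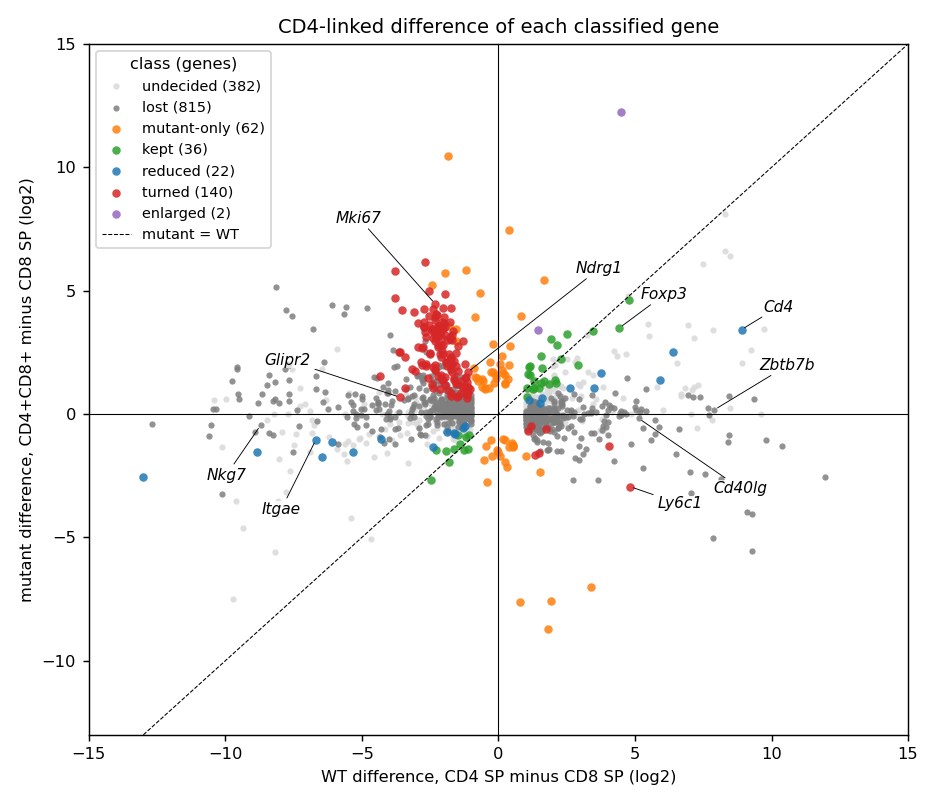
Each point is 1 gene that was put in a class, counted in the legend; the x axis is the WT difference (WT CD4 SP minus WT CD8 SP, log2) and the y axis is the mutant difference (Thpok-RKF- CD4+CD8+ minus Thpok-RKF- CD8 SP, log2), with the dashed line marking equal differences and colours marking what became of the WT difference. Most of the 815 lost genes lie along a mutant difference near 0, the 133 turned genes that were lower in WT CD4 SP cells lie above 0 on the left, and the 36 kept genes lie near the dashed line.

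Genes were then sorted by what became of their WT difference. The WT difference was called and at least 2-fold for 1397 genes (8.44% of those tested), 561 higher (3.39%) and 836 lower (5.05%) in WT CD4 SP cells. Of these, 815 (58.3%) were lost, meaning that the difference of differences was called against the WT difference and the mutant difference was not called. The missing call does not show that no mutant difference was left. In 701 of the 815 the absolute mutant difference was under 1 log2 unit. In 772 (94.7%) its 95% interval, towards the WT direction, ended below 0.5 of the WT difference. Another 22 of the 1397 genes (1.57%) were reduced, with a mutant difference called in the WT direction but smaller by the test. A further 140 (10%) were turned, with a mutant difference called in the opposite direction. In 36 genes (2.58%) the change was kept, meaning that the mutant difference was called in the WT direction and the difference of differences was not called, which does not show that both were equal. In 2 genes it was enlarged, and 382 (27.3%) were undecided because neither the mutant difference nor the difference of differences decided between these. A further 62 genes were called at least 2-fold in the mutant alone, with a called difference of differences and no call in WT. The turned genes were almost all of 1 direction: 133 were lower and 7 were higher in WT CD4 SP cells. Of the kept genes 25 were higher and 11 lower in WT CD4 SP cells, and of the lost genes 328 were higher and 487 lower. Far1, at a WT difference of -1.0002, was the gene just inside the 2-fold limit, and Stx1a, at -0.9994, the gene just outside it.

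**Figure D2:**
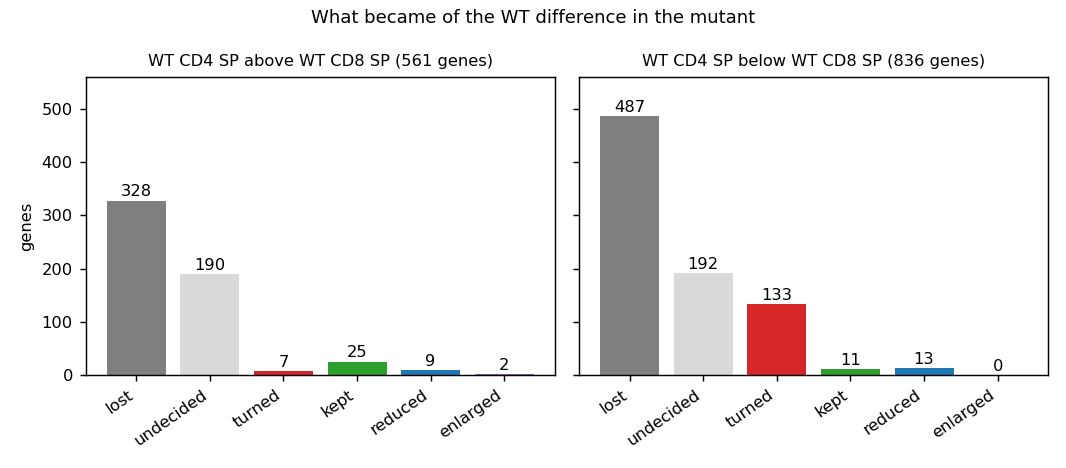
Bars count the genes with a called WT difference of at least 2-fold by what became of it in the mutant (lost, reduced, turned, kept, enlarged or undecided), split by the WT direction, with the y axis in genes starting at 0. Lost genes make up 328 of those higher and 487 of those lower in WT CD4 SP cells, and turned genes 7 and 133.

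In the lost genes that were higher in WT CD4 SP cells the median mutant difference was -0.20 beside a median WT difference of 1.64, and in those that were lower it was 0.31 beside -1.71, values that the choice of these genes largely fixes. The mutant groups did not sit together at 1 end of the WT axis. In 308 lost genes both mutant groups lay nearer to WT CD8 SP cells, in 356 both lay nearer to WT CD4 SP cells, and in 151 they were on different sides. Across the 1397 genes the mutant and WT differences were nearly unrelated, with a Pearson r of -0.017 and a Spearman rho of -0.136, given as a description because genes share the same 12 libraries. The signs were equal in 50.3% of the 561 genes that were higher in WT CD4 SP cells and in 31.0% of the 836 that were lower. The difference of differences can be read the other way round, as mutant CD4+CD8+ minus WT CD4 SP less mutant CD8 SP minus WT CD8 SP. The first of these was called for 2908 genes (17.6%), 1514 higher (9.15%) and 1394 lower (8.42%) in the mutant, and the second for 3045 (18.4%), 1287 higher (7.78%) and 1758 lower (10.6%). Both use the same libraries as the classes, so they describe where a change lay and add no evidence for it.

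Glipr2, Itgae, Ly6c1 and Ndrg1, the genes given with the comparison, had large and tightly replicated differences of differences. The grounds for giving them are not stated and may be these same libraries. Their size and adjusted p are therefore a description and no independent evidence. Glipr2 encodes a membrane-bound protein of the Golgi. Glipr2 had 241, 209 and 213 CPM in mutant CD4+CD8+ libraries and 161, 124 and 129.6 CPM in mutant CD8 SP libraries, against 34.6, 34.9 and 31.4 CPM in WT CD4 SP and 405, 403 and 411 CPM in WT CD8 SP libraries. The groups did not overlap, and both mutant groups lay between the WT groups. For Glipr2 the mutant difference was 0.68 ± 0.12 (adjusted p = 0.00541), the WT difference -3.60 ± 0.13 (adjusted p = 7.22e-10) and the difference of differences 4.27 ± 0.18 (adjusted p = 5.41e-09). The order of the CD4-bearing and the CD8 SP group was thus turned, by a change that was small beside the WT one. Itgae encodes CD103, the integrin alpha chain that pairs with beta 7 and binds E-cadherin on epithelium. Itgae had 113, 99 and 106 CPM in mutant CD4+CD8+ libraries and 209.7, 225 and 221 CPM in mutant CD8 SP libraries, against 6.24, 10.3 and 8.76 CPM in WT CD4 SP and 888, 867 and 850.0 CPM in WT CD8 SP libraries. Both mutant groups again lay between the WT groups without overlap. For Itgae the mutant difference was -1.04 ± 0.16 (adjusted p = 0.00166), the WT difference -6.68 ± 0.20 (adjusted p = 9.01e-11) and the difference of differences 5.64 ± 0.24 (adjusted p = 5.41e-09). Its WT direction was kept at a smaller size. Ndrg1, a gene induced by low oxygen and linked to T cell anergy, was turned as well. Ndrg1 had 57.3, 57.5 and 55.5 CPM in mutant CD4+CD8+ libraries and 18, 16.8 and 17.7 CPM in mutant CD8 SP libraries, against 38, 35.5 and 28.5 CPM in WT CD4 SP and 74.2, 76.2 and 72.1 CPM in WT CD8 SP libraries. For Ndrg1 the mutant difference was 1.70 ± 0.12 (adjusted p = 5.08e-06), the WT difference -1.13 ± 0.12 (adjusted p = 1.15e-05) and the difference of differences 2.82 ± 0.17 (adjusted p = 9.77e-08). Mutant CD8 SP cells had the lowest Ndrg1 and WT CD8 SP cells the highest.

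Ly6c1 encodes a GPI-anchored surface protein of the Ly6 family that marks subsets of T cells. Ly6c1 had 7.96, 8.95 and 9.91 CPM in mutant CD4+CD8+ libraries and 58.7, 74.5 and 73 CPM in mutant CD8 SP libraries, against 23.8, 23 and 23.3 CPM in WT CD4 SP and 0.266, 1.15 and 1.03 CPM in WT CD8 SP libraries. Mutant CD8 SP cells had the highest level and WT CD8 SP cells the lowest, with no overlap between any of the 4 groups. For Ly6c1 the mutant difference was -2.94 ± 0.33 (adjusted p = 0.000122), the WT difference 4.82 ± 0.38 (adjusted p = 8.07e-07) and the difference of differences -7.77 ± 0.50 (adjusted p = 2.46e-07). The neighbouring and near-identical gene Ly6c2 did the reverse. Ly6c2 had 19.9, 15.9 and 15.1 CPM in mutant CD4+CD8+ libraries and 7.48, 4.93 and 5.15 CPM in mutant CD8 SP libraries, against 1.9, 3.39 and 2.9 CPM in WT CD4 SP and 48.2, 62.4 and 56.3 CPM in WT CD8 SP libraries. For Ly6c2 the mutant difference was 1.54 ± 0.22 (adjusted p = 0.00107), the WT difference -4.35 ± 0.25 (adjusted p = 3.16e-08) and the difference of differences 5.88 ± 0.33 (adjusted p = 6.41e-08). Both genes were turned, in opposite directions, and reads from such paralogs may be shared between them, so each value is uncertain to that extent. The promoters of the pair are shown because the genes are close copies with opposite patterns. They span 250 bases before to 50 after the first of 2 listed starts, are from RefSeq on build GRCm38.p6, minus strand, at chr15:75048788-75049087 for Ly6c1 and chr15:75111922-75112221 for Ly6c2, and are written 5′ to 3′. Capitals mark TGTGGT or its reverse complement ACCACA, the core that Runx proteins are known to bind.
Ly6c1 promoter: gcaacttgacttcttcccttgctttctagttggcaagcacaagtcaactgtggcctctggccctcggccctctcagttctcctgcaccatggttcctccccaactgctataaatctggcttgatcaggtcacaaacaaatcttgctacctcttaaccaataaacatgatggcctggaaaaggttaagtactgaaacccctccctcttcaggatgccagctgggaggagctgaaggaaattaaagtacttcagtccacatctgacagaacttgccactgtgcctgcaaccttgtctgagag
Ly6c2 promoter: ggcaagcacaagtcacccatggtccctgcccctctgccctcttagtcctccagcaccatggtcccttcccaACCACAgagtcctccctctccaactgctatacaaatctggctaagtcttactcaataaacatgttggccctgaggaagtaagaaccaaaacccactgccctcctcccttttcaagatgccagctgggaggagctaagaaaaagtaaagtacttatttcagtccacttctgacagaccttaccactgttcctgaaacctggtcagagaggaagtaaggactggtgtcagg
The letters were found once in the Ly6c2 window and not in the Ly6c1 window, and 16.9% of all 27025 promoters of the same length hold them. An alignment of both windows paired 266 bases, of which 208 (78.2%) were identical. A match is a description of the sequence and was not tested as a site.

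**Figure D3:**
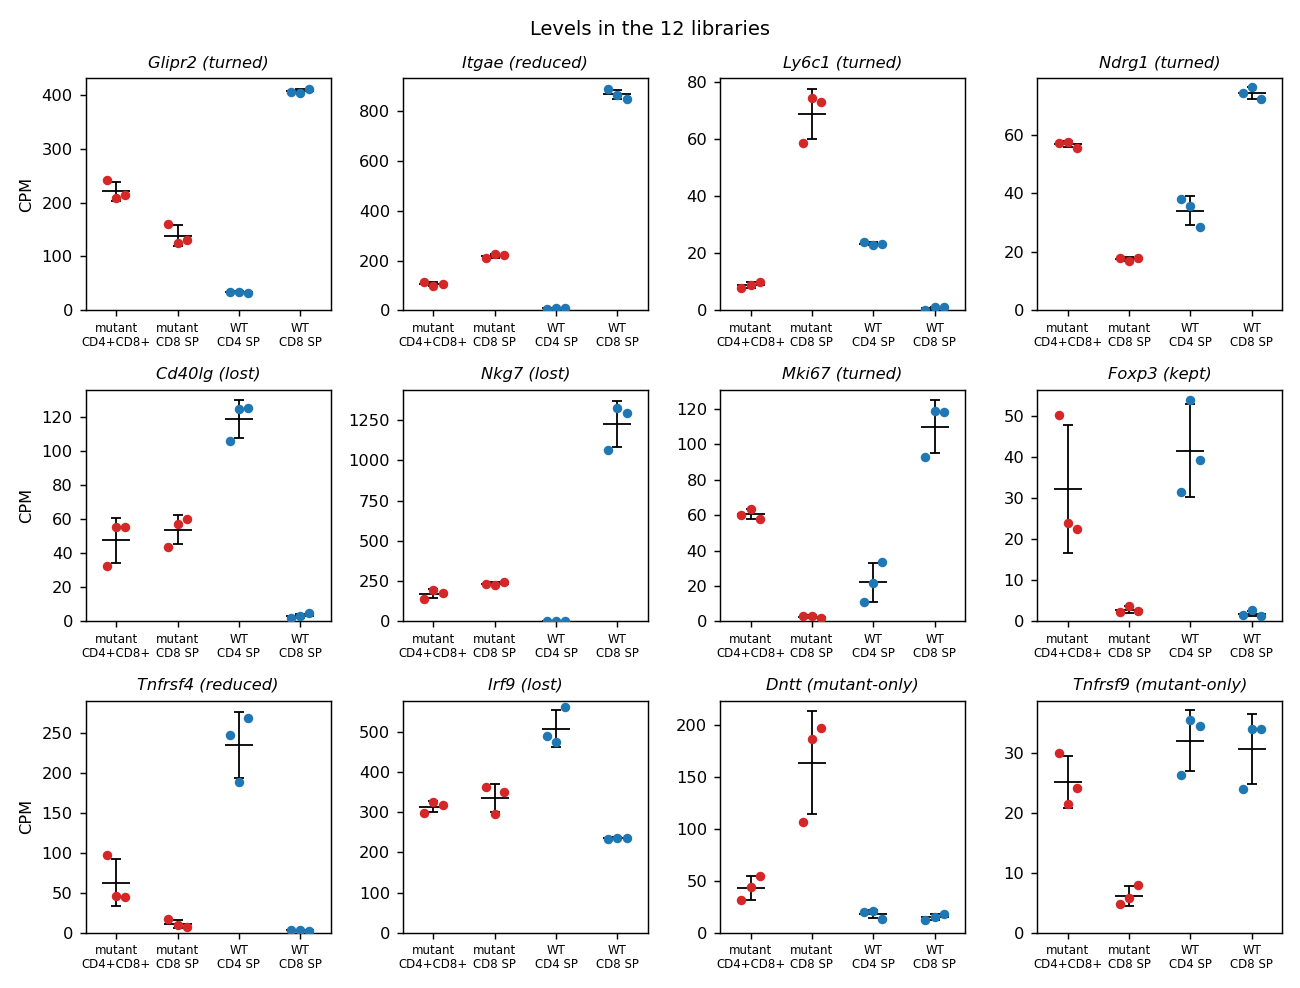
Levels of 12 genes in CPM (y axes, each starting at 0) in the 4 groups along x, mutant groups in red and WT groups in blue; points are the 3 libraries and bars the mean ± SD. Glipr2 and Itgae lie between the WT groups in both mutant groups, Ly6c1 is highest in mutant CD8 SP cells, and Mki67 is lowest there.

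Helper genes were among those lost. The list of helper genes holds Cd4, part of the gates, and Zbtb7b, a targeted gene, and both are left out of the counts here. Of the other 10 genes, 2 were called in the mutant difference, Tnfrsf4 and Cd5, and 7 in the WT difference, all of them higher in CD4-bearing cells, and the difference of differences was called below 0 for 4 and above 0 for 1. The median over the 10 was 0.20 for the mutant difference and 1.08 for the WT difference, beside 0 and -0.03 over all genes tested. Cd40lg encodes CD40 ligand, with which helper T cells activate B cells and dendritic cells. Cd40lg had 32.3, 55.2 and 55.3 CPM in mutant CD4+CD8+ libraries and 43.9, 57.4 and 60.3 CPM in mutant CD8 SP libraries, against 106, 125 and 125 CPM in WT CD4 SP and 2.1, 3.24 and 4.69 CPM in WT CD8 SP libraries. The mutant groups overlapped each other and lay below WT CD4 SP and above WT CD8 SP cells. For Cd40lg the mutant difference was -0.18 ± 0.26 (adjusted p = 0.923), the WT difference 5.14 ± 0.31 (adjusted p = 6.66e-08) and the difference of differences -5.32 ± 0.40 (adjusted p = 8.16e-07). St8sia6 encodes a sialyltransferase. St8sia6 had 144, 106 and 89.1 CPM in mutant CD4+CD8+ libraries and 98.2, 49.8 and 54.1 CPM in mutant CD8 SP libraries, against 177, 199 and 177 CPM in WT CD4 SP and 0.718, 0.853 and 0.0233 CPM in WT CD8 SP libraries. For St8sia6 the mutant difference was 0.75 ± 0.36 (adjusted p = 0.475), the WT difference 8.46 ± 0.53 (adjusted p = 8.79e-08) and the difference of differences -7.71 ± 0.62 (adjusted p = 1.47e-06). Both mutant groups had at least 49.8 CPM in every library, where WT CD8 SP cells were near 0. Gata3, a factor that CD4 lineage cells need upstream of Thpok, had a mutant difference of 0.12 ± 0.16 (adjusted p = 0.914) and a difference of differences of -1.12 ± 0.23 (adjusted p = 0.00417). The 1 helper gene whose difference of differences was above 0 was Cd5, a surface receptor set by TCR signal strength, at 0.98 ± 0.18 (adjusted p = 0.00194).

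Genes outside the list were lost as well. Lgmn encodes legumain, a lysosomal protease. Lgmn had 26.8, 27.1 and 31.3 CPM in mutant CD4+CD8+ libraries and 32, 29.7 and 26.5 CPM in mutant CD8 SP libraries, against 57.5, 34.2 and 42.9 CPM in WT CD4 SP and 1.44, 2.26 and 2.26 CPM in WT CD8 SP libraries. Both mutant groups lay near WT CD4 SP cells rather than near WT CD8 SP cells, and the mutant difference was -0.05 ± 0.19 (adjusted p = 0.98), with a difference of differences of -4.54 ± 0.29 (adjusted p = 2.46e-07). Tbc1d4, a Rab GTPase-activating protein that controls glucose transporter traffic, lay between the WT groups. Tbc1d4 had 18.1, 17.1 and 13.2 CPM in mutant CD4+CD8+ libraries and 19.7, 19.2 and 20.5 CPM in mutant CD8 SP libraries, against 39.2, 51.4 and 63.3 CPM in WT CD4 SP and 2.31, 3.19 and 5.01 CPM in WT CD8 SP libraries. Its difference of differences was -4.16 ± 0.35 (adjusted p = 2.37e-06). Cd200r1, an inhibitory receptor for CD200, and St3gal2, another sialyltransferase, had differences of differences of -3.98 ± 0.33 (adjusted p = 1.81e-06) and -3.98 ± 0.48 (adjusted p = 7.11e-05). St3gal2 was at 29.8, 29.9 and 35.5 CPM in mutant CD4+CD8+ and 18.6, 33.1 and 29 CPM in mutant CD8 SP libraries, against 26.3, 22.5 and 14.6 CPM in WT CD4 SP and 0.452, 1.71 and 1.24 CPM in WT CD8 SP libraries. Of the 328 lost genes that were higher in WT CD4 SP cells, 217 were called higher in mutant than WT CD8 SP cells and 153 were called lower in mutant CD4+CD8+ than in WT CD4 SP cells.

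Cytotoxic genes also lost their difference, with clear expression in mutant CD4+CD8+ cells where WT CD4 SP cells had little. Of 19 tested genes on the cytotoxic list, not counting Cd8a and Cd8b1 of the gates and the targeted Runx3, 4 were higher and 2 lower in mutant CD4+CD8+ cells, 1 was higher and 15 were lower in WT CD4 SP cells, and the difference of differences was called above 0 for 12 and below 0 for 1. With 2 members that had a group without counts set at a floor of 3 counts over that group, the median was -0.04 for the mutant and -2.63 for the WT difference; for the mutant it was 0.23 as fitted. Without these 3 genes the summed level of the list was 1425 to 1783 CPM in mutant CD4+CD8+ libraries and 1434 to 1677 CPM in mutant CD8 SP libraries, against 566 to 702 CPM in WT CD4 SP and 4183 to 4273 CPM in WT CD8 SP libraries. The mutant groups overlapped in this sum and lay between the WT groups. Over the full list, the 3 genes included, the mutant difference was called lower for 6 genes without the 5 libraries numbered 1, against 3 with all libraries. Nkg7 encodes a protein of the cytotoxic granule membrane. Nkg7 had 140.5, 195 and 178 CPM in mutant CD4+CD8+ libraries and 236, 226 and 245 CPM in mutant CD8 SP libraries, against 1.26, 2.09 and 5.47 CPM in WT CD4 SP and 1065, 1327 and 1295 CPM in WT CD8 SP libraries. For Nkg7 the mutant difference was -0.46 ± 0.32 (adjusted p = 0.727), the WT difference -8.71 ± 0.45 (adjusted p = 1.55e-08) and the difference of differences 8.25 ± 0.52 (adjusted p = 2.46e-07). Without WT CD4 SP replicate 3 the difference of differences was 9.02. Both mutant groups lay far above WT CD4 SP cells and below WT CD8 SP cells. Prf1 encodes perforin, which forms pores in target cells. Prf1 had 223, 257 and 251 CPM in mutant CD4+CD8+ libraries and 297, 327 and 344 CPM in mutant CD8 SP libraries, against 36.3, 31.7 and 30.2 CPM in WT CD4 SP and 113, 134 and 140.5 CPM in WT CD8 SP libraries. Here both mutant groups lay above WT CD8 SP cells as well. Klrd1, the CD94 chain of an NK receptor, lay between the WT groups in both mutant groups. Klrd1 had 5.47, 7.82 and 7.11 CPM in mutant CD4+CD8+ libraries and 4.85, 5.97 and 3.52 CPM in mutant CD8 SP libraries, against 0.0457, 0.476 and 1.74 CPM in WT CD4 SP and 56.7, 70.3 and 68 CPM in WT CD8 SP libraries. The 1 gene called below 0 was Fasl, the ligand of the death receptor Fas, with 99 counts over mutant CD4+CD8+ and 80 over mutant CD8 SP libraries, against 1241 over WT CD4 SP and 5 over WT CD8 SP libraries; it was named after its values were seen.

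Further lost genes that were lower in WT CD4 SP cells encode surface receptors. Adgrg5, an adhesion G protein-coupled receptor, had a mutant difference of -0.49 ± 0.22 (adjusted p = 0.452) and a WT difference of -7.31 ± 0.30. Cd160, a receptor for the TNF receptor family member HVEM, had 0.47 ± 0.31 (adjusted p = 0.688) and -5.40 ± 0.37. Cd160 had 14.7, 18.9 and 24.8 CPM in mutant CD4+CD8+ libraries and 8.02, 14.3 and 19.7 CPM in mutant CD8 SP libraries, against 1.21, 2.61 and 2.47 CPM in WT CD4 SP and 70.5, 95.7 and 99.6 CPM in WT CD8 SP libraries. Ccr9, the chemokine receptor that draws T cells to the gut, was an exception in its level. Ccr9 had 517, 530.1 and 581 CPM in mutant CD4+CD8+ libraries and 545, 731 and 617 CPM in mutant CD8 SP libraries, against 24.1, 20.6 and 18.7 CPM in WT CD4 SP and 358, 326 and 312 CPM in WT CD8 SP libraries. Both mutant groups were above WT CD8 SP cells, and the difference of differences was 3.76 ± 0.28 (adjusted p = 8.1e-07). Over the 487 lost genes of this direction, 264 were called higher in mutant CD4+CD8+ than in WT CD4 SP cells and 259 called lower in mutant than in WT CD8 SP cells.

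Among the 22 reduced genes the WT direction was still called in the mutant. The median mutant difference was 1.06 beside a WT difference of 3.49 in the 9 that were higher in WT CD4 SP cells, and -1.04 beside -4.29 in the 13 that were lower. Tnfrsf4 encodes OX40, a costimulatory receptor. Tnfrsf4 had 96.5, 46.4 and 44.4 CPM in mutant CD4+CD8+ libraries and 16.9, 9.03 and 7.27 CPM in mutant CD8 SP libraries, against 247, 188 and 269 CPM in WT CD4 SP and 3.38, 2.71 and 2.24 CPM in WT CD8 SP libraries. Tnfrsf4 had a mutant difference of 2.50 ± 0.34 (adjusted p = 0.000654) and a WT difference of 6.40 ± 0.41, and the difference of differences was -3.91 ± 0.48 (adjusted p = 8.18e-05). Replicate 1 was the highest library in both mutant groups. Ptgir, the prostacyclin receptor, had 1.37 ± 0.27 (adjusted p = 0.0111) in the mutant and 5.93 ± 0.34 in WT. Its mutant call was not held without mutant CD4+CD8+ replicate 1 or mutant CD8 SP replicate 3 (adjusted p = 0.0539 to 0.0751). Cst7 encodes cystatin F, an inhibitor of the proteases that mature granule enzymes. Cst7 had 8.14, 9.24 and 7.8 CPM in mutant CD4+CD8+ libraries and 16.8, 18 and 16.1 CPM in mutant CD8 SP libraries, against 4.18, 5.61 and 6.27 CPM in WT CD4 SP and 112, 101 and 102 CPM in WT CD8 SP libraries. Cst7 had a mutant difference of -1.01 ± 0.15 (adjusted p = 0.00129) and a WT difference of -4.29 ± 0.17, and the difference of differences was 3.28 ± 0.21 (adjusted p = 2.55e-07). Gria3, a glutamate receptor subunit, was near 1 CPM or less in WT CD4 SP cells alone. Gria3 had 14.9, 11.5 and 15.8 CPM in mutant CD4+CD8+ libraries and 45.7, 35.4 and 42.4 CPM in mutant CD8 SP libraries, against 0.343, 0.807 and 0.983 CPM in WT CD4 SP and 33.7, 23.4 and 28.2 CPM in WT CD8 SP libraries. Gria3 had a mutant difference of -1.55 ± 0.27 (adjusted p = 0.00499) and a WT difference of -5.31 ± 0.33, and the difference of differences was 3.76 ± 0.41 (adjusted p = 2.56e-05). Slc6a19, a transporter of neutral amino acids, was far above both WT groups in both mutant groups. Slc6a19 had 338, 355 and 362 CPM in mutant CD4+CD8+ libraries and 981, 1094 and 984 CPM in mutant CD8 SP libraries, against 0, 0.414 and 0.0229 CPM in WT CD4 SP and 78.5, 69 and 68.8 CPM in WT CD8 SP libraries. Its mutant difference was -1.54 ± 0.29 (adjusted p = 0.01), a call not held without mutant CD4+CD8+ replicates 1, 2 and 3 or mutant CD8 SP replicate 2 (adjusted p = 0.0513 to 0.056). Its difference of differences, 7.31 ± 0.56 (adjusted p = 1.03e-06), was 10.75 without WT CD4 SP replicate 2. The count of reduced genes was 13 without mutant CD8 SP replicate 2, 11 without mutant CD8 SP replicate 3, 14 without mutant CD4+CD8+ replicate 2 and 13 without mutant CD4+CD8+ replicate 3, and it was 37 without the 5 libraries numbered 1.

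The turned genes held most of the cell cycle list. Of its 20 genes, 13 were called in the mutant difference, all higher in CD4+CD8+ cells, all 20 were called lower in WT CD4 SP than in WT CD8 SP cells, and the difference of differences was called for 19, all above 0. The median was 2.74 for the mutant difference, -1.96 for the WT difference and 4.58 for the difference of differences, beside 0.04 over all genes. By class, 13 were turned and 4 were lost, namely Mcm2, Mcm3, Mcm5 and Mcm6, which encode subunits of the replicative helicase. Mcm4, Mcm7 and Pcna, the sliding clamp, were in no class. Mki67 encodes the proliferation antigen Ki-67. Mki67 had 60.3, 63.3 and 57.7 CPM in mutant CD4+CD8+ libraries and 3.12, 3.33 and 1.72 CPM in mutant CD8 SP libraries, against 11, 21.6 and 33.5 CPM in WT CD4 SP and 92.6, 119 and 118 CPM in WT CD8 SP libraries. For Mki67 the mutant difference was 4.47 ± 0.37 (adjusted p = 2.83e-05), the WT difference -2.32 ± 0.33 (adjusted p = 0.00022) and the difference of differences 6.79 ± 0.50 (adjusted p = 7.33e-07). Mutant CD8 SP libraries were the lowest of all and did not overlap any other group. Top2a, the topoisomerase that untangles chromosomes at mitosis, had the same order. Top2a had 105, 107 and 96.9 CPM in mutant CD4+CD8+ libraries and 11.5, 12 and 10.2 CPM in mutant CD8 SP libraries, against 25.9, 53.2 and 54.2 CPM in WT CD4 SP and 150.1, 242 and 269 CPM in WT CD8 SP libraries. For Top2a the mutant difference was 3.20 ± 0.28 (adjusted p = 3.12e-05), the WT difference -2.31 ± 0.26 (adjusted p = 3.22e-05) and the difference of differences 5.51 ± 0.38 (adjusted p = 4.76e-07). Cdk1, the kinase that drives entry into mitosis, had a mutant difference of 3.24 ± 0.29 (adjusted p = 3.12e-05) and a difference of differences of 5.38 ± 0.40 (adjusted p = 8.1e-07). Ccna2, a cyclin gene of the list, had a difference of differences of 6.45 ± 0.55 (adjusted p = 2.4e-06). Outside the list, the spindle genes Tpx2 and Cenpe had 5.79 ± 0.46 (adjusted p = 1.28e-06) and 5.83 ± 0.46 (adjusted p = 1.23e-06).

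More of the listed cell cycle genes were called between the CD8 SP groups, which differ in host as well as in genotype, than between the CD4-bearing groups. All 20 listed cell cycle genes were called lower in mutant than in WT CD8 SP cells, with a median of -3.74, whereas 6 were called between mutant CD4+CD8+ and WT CD4 SP cells, all higher, with a median of 0.70 over the 20. Their summed level was 1503 to 1583 CPM in mutant CD4+CD8+ libraries and 879.5 to 1079 CPM in mutant CD8 SP libraries, against 1116 to 1423 CPM in WT CD4 SP and 2745 to 4239.9 CPM in WT CD8 SP libraries. Mcm2, a lost member, had 162, 176 and 167 CPM in mutant CD4+CD8+ and 117, 162 and 169 CPM in mutant CD8 SP libraries, against 135, 163 and 152 CPM in WT CD4 SP and 322, 423 and 488 CPM in WT CD8 SP libraries. Over the 133 turned genes that were lower in WT CD4 SP cells, 132 were called lower in mutant than in WT CD8 SP cells (median -3.92), and 46 were called higher and 1 lower in mutant CD4+CD8+ than in WT CD4 SP cells (median 0.86).

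Promoters of 3 turned cell cycle genes are printed because these genes moved together. They are RefSeq windows from 250 bases before to 50 after the start on GRCm38.p6, minus strand, 5′ to 3′, at chr10:69352863-69353162 for Cdk1, chr11:99024140-99024439 for Top2a and chr7:135716330-135716629 for Mki67. Capitals mark CCAAT or ATTGG, the letters that NF-Y is known to bind, and TTTGAA or TTCAAA, known as the cell cycle genes homology region, each searched on both strands.
Cdk1 promoter: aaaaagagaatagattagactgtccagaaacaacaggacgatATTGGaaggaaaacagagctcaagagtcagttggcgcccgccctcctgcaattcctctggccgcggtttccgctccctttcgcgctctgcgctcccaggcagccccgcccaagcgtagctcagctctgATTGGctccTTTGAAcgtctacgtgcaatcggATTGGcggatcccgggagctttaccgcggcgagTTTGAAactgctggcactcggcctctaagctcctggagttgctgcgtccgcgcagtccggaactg
Top2a promoter: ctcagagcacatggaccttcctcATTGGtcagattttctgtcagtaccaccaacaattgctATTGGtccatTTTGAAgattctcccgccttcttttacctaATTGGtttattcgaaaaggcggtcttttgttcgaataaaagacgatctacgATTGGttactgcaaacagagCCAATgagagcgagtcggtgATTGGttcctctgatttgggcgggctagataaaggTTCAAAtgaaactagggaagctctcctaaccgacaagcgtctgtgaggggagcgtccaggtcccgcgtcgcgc
Mki67 promoter: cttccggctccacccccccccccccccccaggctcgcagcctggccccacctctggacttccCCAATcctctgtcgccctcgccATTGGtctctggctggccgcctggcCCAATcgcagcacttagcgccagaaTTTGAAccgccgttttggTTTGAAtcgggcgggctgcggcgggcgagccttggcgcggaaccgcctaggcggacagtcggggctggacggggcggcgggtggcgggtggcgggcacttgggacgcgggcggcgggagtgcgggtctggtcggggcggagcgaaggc
Cdk1 held CCAAT 3 times and TTTGAA 2 times, Top2a 6 and 2 times, and Mki67 3 and 2 times. A promoter was found for 17 of the 20 listed genes (85%), and 15 of the 17 held CCAAT and 7 held TTTGAA. Of all 27025 promoters, 37.9% held CCAAT and 18.1% TTTGAA. For the turned genes a promoter was found for only 111 of 140 (79.3%), of which 74 held CCAAT and 50 TTTGAA. The other turned genes could not be searched, so these counts do not cover the class.

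Other turned genes that were lower in WT CD4 SP and higher in mutant CD4+CD8+ cells came from several lists. Among these were the lists of effector genes, transcription factors and cytotoxic genes. Lgals1 and Anxa2 encode galectin-1 and annexin A2, which rise in effector and memory T cells. Lgals1 had 35.4, 28.6 and 33.2 CPM in mutant CD4+CD8+ libraries and 11.5, 7.91 and 10.3 CPM in mutant CD8 SP libraries, against 50.0, 61.5 and 77.9 CPM in WT CD4 SP and 218, 207 and 196 CPM in WT CD8 SP libraries. Lgals1 had a mutant difference of 1.71 ± 0.17 (adjusted p = 5.45e-05) and a WT difference of -1.71 ± 0.17, and the difference of differences was 3.42 ± 0.24 (adjusted p = 5.03e-07). Lgals1 was highest in WT CD8 SP cells and lowest in mutant CD8 SP cells. Anxa2 had a mutant difference of 2.31 ± 0.20 (adjusted p = 3.12e-05) and a difference of differences of 4.06 ± 0.28 (adjusted p = 4.76e-07). Id2, an inhibitor of E proteins, had 141, 167 and 149.9 CPM in mutant CD4+CD8+ and 89.9, 62.8 and 64.9 CPM in mutant CD8 SP libraries, against 77.8, 70.3 and 95.6 CPM in WT CD4 SP and 156, 199 and 197 CPM in WT CD8 SP libraries. Id2 had a mutant difference of 1.07 ± 0.16 (adjusted p = 0.00183) and a WT difference of -1.18 ± 0.16, and the difference of differences was 2.25 ± 0.23 (adjusted p = 1.69e-05). Il2rb, the beta chain of the receptors for IL-2 and IL-15, had 446, 328 and 335 CPM in mutant CD4+CD8+ and 207, 156 and 190.3 CPM in mutant CD8 SP libraries, against 124, 179.6 and 105 CPM in WT CD4 SP and 609.9, 591 and 591 CPM in WT CD8 SP libraries. Of 20 tested effector and memory genes, the difference of differences was called above 0 for 9 and below 0 for 3. Over all genes tested these shares were 8.47% and 5.79%, and 2.44% were called in the mutant difference. The mutant difference was called for 3, Lgals1, Anxa2 and Vim, all higher, whereas DESeq2 called 5 higher and 2 lower, and edgeR 4 higher and 3 lower without the 5 libraries numbered 1.

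The 7 genes turned the other way were higher in WT CD4 SP cells and lower in mutant CD4+CD8+ cells: Ly6c1, Pdlim4, Adamts14, Tubb2a, Tesc, Selenop and Slfn2. All 7 were called higher in mutant than in WT CD8 SP cells, with a median of 3.35. Pdlim4 encodes a LIM domain protein that binds actin. Pdlim4 had 83.5, 84.6 and 75.2 CPM in mutant CD4+CD8+ libraries and 235, 177 and 178 CPM in mutant CD8 SP libraries, against 65.3, 42.8 and 53.9 CPM in WT CD4 SP and 4.84, 2.01 and 2.89 CPM in WT CD8 SP libraries. Pdlim4 had a mutant difference of -1.28 ± 0.24 (adjusted p = 0.00769) and a WT difference of 4.06 ± 0.27, and the difference of differences was -5.34 ± 0.36 (adjusted p = 3.76e-07). Tubb2a, a beta tubulin, had the same pattern. Tubb2a had 72.9, 62.7 and 58 CPM in mutant CD4+CD8+ libraries and 207, 196 and 206 CPM in mutant CD8 SP libraries, against 49.7, 56 and 47 CPM in WT CD4 SP and 17.7, 19.3 and 22.7 CPM in WT CD8 SP libraries. Tubb2a had a mutant difference of -1.65 ± 0.13 (adjusted p = 1.16e-05) and a WT difference of 1.35 ± 0.13, and the difference of differences was -3.01 ± 0.18 (adjusted p = 1.06e-07). Adamts14, a protease of procollagen, had a mutant difference of -1.56 ± 0.26 (adjusted p = 0.0037) and a difference of differences of -3.06 ± 0.38 (adjusted p = 7.93e-05). The mutant calls of Tesc, Selenop and Slfn2 were smaller, at -0.59 for Tesc, -0.67 for Selenop and -0.50 for Slfn2. They depended on single libraries: that of Tesc was not held without mutant CD4+CD8+ replicates 1 and 3 or mutant CD8 SP replicates 2 and 3 (adjusted p = 0.0689 to 0.131), that of Selenop without the same libraries (adjusted p = 0.0548 to 0.0845), and that of Slfn2 without any 1 of the 12 (adjusted p = 0.0567 to 0.21).

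Genes of regulatory T cells were among the kept. Of 14 listed regulatory T cell genes, 9 were called in the mutant difference, all higher in CD4+CD8+ cells, 9 were higher and 1 lower in WT CD4 SP cells, and the difference of differences was called above 0 for 4 and below 0 for 3. The median was 1.38 for the mutant and 1.61 for the WT difference, also with 2 members that had a group without counts set at the floor. The mutant count was 6 without mutant CD8 SP replicate 2, and the count above 0 was 2 without WT CD4 SP replicate 1. Foxp3 encodes the factor that defines regulatory T cells. Foxp3 had 50.1, 24 and 22.4 CPM in mutant CD4+CD8+ libraries and 2.27, 3.85 and 2.45 CPM in mutant CD8 SP libraries, against 31.5, 53.7 and 39.3 CPM in WT CD4 SP and 1.68, 2.68 and 1.42 CPM in WT CD8 SP libraries. Foxp3 had a mutant difference of 3.49 ± 0.36 (adjusted p = 6.05e-05) and a WT difference of 4.43 ± 0.37, and the difference of differences was -0.94 ± 0.47 (adjusted p = 0.217). Foxp3 was low in both CD8 SP groups and higher in both CD4-bearing groups. Its kept state depended on replicate 1: without mutant CD4+CD8+ replicate 1 the difference of differences was -1.42 (adjusted p = 0.0389), and without the 5 libraries numbered 1 it was -1.65 (adjusted p = 0.0402). Ikzf4, which encodes Eos, a partner of Foxp3, had 1.32 ± 0.21 (adjusted p = 0.003) in the mutant and 1.68 ± 0.22 (adjusted p = 0.000102) in WT. Ikzf4 had 56.5, 41.7 and 38.9 CPM in mutant CD4+CD8+ libraries and 21.4, 18.3 and 15.1 CPM in mutant CD8 SP libraries, against 44.6, 45 and 40.6 CPM in WT CD4 SP and 12.7, 16.4 and 11.5 CPM in WT CD8 SP libraries. Nrp1 and Izumo1r, surface proteins of regulatory T cells, were also kept, with mutant differences of 1.28 and 1.06 and WT differences of 1.54 and 1.49.

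Other members of that list were not kept. Ctla4, the inhibitory receptor that competes with CD28, was lost, with a mutant difference of -0.08 ± 0.40 (adjusted p = 0.984) and a difference of differences of -2.34 ± 0.58 (adjusted p = 0.0148). Ctla4 had 40.9, 19.8 and 20.3 CPM in mutant CD4+CD8+ libraries and 51, 17.3 and 17.3 CPM in mutant CD8 SP libraries, against 34.2, 40.0 and 33.8 CPM in WT CD4 SP and 10.3, 6.25 and 5.95 CPM in WT CD8 SP libraries. Replicate 1 was the highest in both mutant groups, and without mutant CD8 SP replicate 1 the difference of differences was -1.66. Il2ra, the alpha chain of the IL-2 receptor, had a mutant difference of 1.45 ± 0.40 (adjusted p = 0.0891) and a difference of differences of -3.25 ± 0.58 (adjusted p = 0.00179). Ikzf2, which encodes Helios, was turned. Ikzf2 had 18.3, 10.7 and 10.3 CPM in mutant CD4+CD8+ libraries and 2.4, 0.994 and 1.07 CPM in mutant CD8 SP libraries, against 5.35, 8.9 and 12.1 CPM in WT CD4 SP and 23.6, 35.5 and 30.4 CPM in WT CD8 SP libraries. Ikzf2 had a mutant difference of 3.14 ± 0.44 (adjusted p = 0.000806) and a WT difference of -1.76 ± 0.40, and the difference of differences was 4.90 ± 0.59 (adjusted p = 6.79e-05). Lrrc32, which presents latent TGF-beta on regulatory T cells, was 1 of the 2 enlarged genes, with 1908 counts over the mutant CD4+CD8+ libraries and 0 over the mutant CD8 SP libraries, against 3454 counts over WT CD4 SP and 138 over WT CD8 SP libraries. The other was A430093F15Rik, with a mutant difference of 3.41 and a WT difference of 1.44; both were named after their values were seen.

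Kept genes outside that list lay in both directions. Cd200, an inhibitory ligand of immune cells, had a mutant difference of 1.87 ± 0.17 (adjusted p = 3.12e-05) and a WT difference of 1.59 ± 0.17. Cd200 had 35.8, 33.8 and 31.4 CPM in mutant CD4+CD8+ libraries and 8.62, 8.56 and 10.5 CPM in mutant CD8 SP libraries, against 71.4, 68.9 and 96.5 CPM in WT CD4 SP and 27.1, 23.4 and 28.1 CPM in WT CD8 SP libraries. Both mutant groups were below their WT counterparts, by -1.23 ± 0.17 (adjusted p = 0.000261) for the CD4-bearing and -1.51 ± 0.17 (adjusted p = 2e-05) for the CD8 SP cells, so the difference was kept at a lower level. Sytl2, a vesicle traffic protein, had 2.36 ± 0.21 (adjusted p = 3.12e-05) in the mutant and 1.56 ± 0.21 in WT. In the other direction, Hid1 and Abhd15 were lower in CD4-bearing cells of both genotypes. Hid1 had 90.7, 83 and 85.7 CPM in mutant CD4+CD8+ libraries and 201, 189 and 217 CPM in mutant CD8 SP libraries, against 104, 104 and 109 CPM in WT CD4 SP and 303, 268 and 265 CPM in WT CD8 SP libraries. Hid1 had a mutant difference of -1.23 ± 0.11 (adjusted p = 3.12e-05) and a WT difference of -1.40 ± 0.11, and the difference of differences was 0.17 ± 0.16 (adjusted p = 0.546). Abhd15 had 5.7, 8.62 and 11.2 CPM in mutant CD4+CD8+ libraries and 23.5, 24.7 and 24.5 CPM in mutant CD8 SP libraries, against 7.86, 4.8 and 4.05 CPM in WT CD4 SP and 23.6, 19.7 and 20.1 CPM in WT CD8 SP libraries. Over the 36 kept genes the median absolute difference of differences was 0.36, and in 11 of them its 95% interval lay within 1 log2 unit of 0. The count of kept genes was 22 without mutant CD8 SP replicate 2 and 21 without mutant CD4+CD8+ replicate 1.

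The genes called in the mutant alone included genes of the T cell receptor (TCR) response. Of 18 listed TCR response genes, 7 were called in the mutant difference, all higher in CD4+CD8+ cells, and 4 were higher and 2 lower in WT CD4 SP cells. Over all genes tested 2.44% were called in the mutant, 18% in WT and 14.3% in the difference of differences. The difference of differences was called for Egr1, Egr2, Egr3, Cd5 and Tnfrsf9, all above 0. These 5 became 9 with a replicate block, 8 with 2 more below 0 without the 5 libraries numbered 1, and 8 with 1 more below 0 in DESeq2, which also called 11 in the mutant difference. Both the mutant and the WT call of Egr3 were not held without single libraries (adjusted p = 0.0837 to 0.125 and 0.0506 to 0.0666). Without WT CD4 SP replicate 1 none was called lower in WT CD4 SP cells. The median was 1.44 for the mutant and 0.18 for the WT difference. The summed level was 3145 to 3708 CPM in mutant CD4+CD8+ libraries and 1578 to 1907 CPM in mutant CD8 SP libraries, against 4106 to 4329 CPM in WT CD4 SP and 2975 to 3329 CPM in WT CD8 SP libraries, and mutant CD8 SP libraries were the lowest without overlap. Egr1 encodes an early growth response factor switched on within minutes of TCR engagement. Egr1 had 293, 395 and 393 CPM in mutant CD4+CD8+ libraries and 108, 124 and 125 CPM in mutant CD8 SP libraries, against 292, 310.0 and 347 CPM in WT CD4 SP and 196, 304 and 303 CPM in WT CD8 SP libraries. Egr1 had a mutant difference of 1.59 ± 0.18 (adjusted p = 0.000113) and a WT difference of 0.24 ± 0.17, and the difference of differences was 1.35 ± 0.24 (adjusted p = 0.00191). Tnfrsf9 encodes 4-1BB, a costimulatory receptor induced by activation. Tnfrsf9 had 30.0, 21.5 and 24.2 CPM in mutant CD4+CD8+ libraries and 4.74, 5.79 and 7.94 CPM in mutant CD8 SP libraries, against 26.3, 35.5 and 34.5 CPM in WT CD4 SP and 24, 34.1 and 34.1 CPM in WT CD8 SP libraries. Tnfrsf9 had a mutant difference of 2.04 ± 0.26 (adjusted p = 0.000387) and a WT difference of 0.06 ± 0.24, and the difference of differences was 1.97 ± 0.35 (adjusted p = 0.00169). Cd5 was called in both genotypes and was larger in the mutant. Cd5 had 452, 413 and 404 CPM in mutant CD4+CD8+ libraries and 124, 103 and 111 CPM in mutant CD8 SP libraries, against 562, 701 and 706 CPM in WT CD4 SP and 312, 359 and 366 CPM in WT CD8 SP libraries. Cd5 had a mutant difference of 1.90 ± 0.13 (adjusted p = 5.08e-06) and a WT difference of 0.92 ± 0.13, and the difference of differences was 0.98 ± 0.18 (adjusted p = 0.00194). Nr4a1, which reports TCR signal strength, was kept, with 1.38 ± 0.29 (adjusted p = 0.0199) in the mutant and 2.09 ± 0.30 in WT. Its mutant call was not held without mutant CD4+CD8+ replicate 1 or mutant CD8 SP replicates 2 and 3 (adjusted p = 0.0892 to 0.117). On the list of dissociation stress genes, which shares Egr1, the mutant difference was called for 2 of 14 genes, both higher, and the part of sample handling in these values was not tested.

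The 39 mutant-only genes that were higher in mutant CD4+CD8+ cells had a median mutant difference of 1.77, and 36 of them were called lower in mutant than in WT CD8 SP cells. Ms4a4c, a membrane protein of the MS4A family, was lowest in mutant CD8 SP cells. Ms4a4c had 31.2, 25.7 and 24.9 CPM in mutant CD4+CD8+ libraries and 4.13, 3.7 and 4.37 CPM in mutant CD8 SP libraries, against 21.4, 25.3 and 36.7 CPM in WT CD4 SP and 15.8, 24.5 and 22.4 CPM in WT CD8 SP libraries. Ms4a4c had a mutant difference of 2.75 ± 0.26 (adjusted p = 3.44e-05) and a WT difference of 0.41 ± 0.24, and the difference of differences was 2.33 ± 0.34 (adjusted p = 0.000408). In the 23 that were lower the median was -1.69, and 19 were called higher in mutant than in WT CD8 SP cells. Dntt encodes terminal deoxynucleotidyl transferase, which adds bases at receptor gene joints in immature thymocytes. Dntt had 31.2, 44.1 and 54.1 CPM in mutant CD4+CD8+ libraries and 107, 187 and 197 CPM in mutant CD8 SP libraries, against 20.1, 20.3 and 13 CPM in WT CD4 SP and 12.2, 15.2 and 18 CPM in WT CD8 SP libraries. Dntt had a mutant difference of -1.92 ± 0.28 (adjusted p = 0.00136) and a WT difference of 0.23 ± 0.28, and the difference of differences was -2.16 ± 0.40 (adjusted p = 0.00218). Both mutant groups were above both WT groups. Of the 12 listed genes of immature double-positive thymocytes, 1 was called in the mutant difference, Dntt, and 3 by DESeq2, all lower. The difference of differences was called above 0 for Mns1 and below 0 for Dntt and Cd1d1. Among all genes tested the mutant difference was called for 2.44% and the difference of differences for 14.3%. Socs3, an inhibitor of cytokine receptor signalling, followed Dntt. Socs3 had 63.6, 88.9 and 86.1 CPM in mutant CD4+CD8+ libraries and 182, 288 and 298 CPM in mutant CD8 SP libraries, against 57.7, 56.3 and 45 CPM in WT CD4 SP and 65.3, 41.5 and 45 CPM in WT CD8 SP libraries. Socs3 had a mutant difference of -1.69 ± 0.22 (adjusted p = 0.000462) and a WT difference of 0.07 ± 0.21, and the difference of differences was -1.75 ± 0.30 (adjusted p = 0.00131). Slc16a5, a monocarboxylate transporter, and Tha1, a threonine aldolase, had mutant differences of -1.56 ± 0.27 (adjusted p = 0.00411) and -1.35 ± 0.22 (adjusted p = 0.0031). The count of mutant-only genes was 30 without mutant CD8 SP replicate 2, 31 without mutant CD8 SP replicate 3 and 38 without mutant CD4+CD8+ replicate 1.

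Interferon response genes lost a difference that was moderate in WT. Of 24 listed genes, the edgeR test called 0 in the mutant difference, with 4 higher and 0 lower at an unadjusted p below 0.05, and DESeq2 and limma each called 1, higher in CD4+CD8+ cells. Without the 5 libraries numbered 1 edgeR called 2, both higher. In WT, 15 were higher and 1 lower in CD4 SP cells, and the difference of differences was called below 0 for 13 and above 0 for 1, Gbp3. Without mutant CD8 SP replicate 1 it was below 0 for 9. Over all genes tested 2.44% were called in the mutant, 18% in WT and 14.3% in the difference of differences. The median was 0.06 for the mutant and 0.90 for the WT difference. By class 9 genes were lost. Irf9, the DNA-binding part of the complex that type I interferon activates, showed the pattern. Irf9 had 299, 326 and 318 CPM in mutant CD4+CD8+ libraries and 363, 295 and 349.8 CPM in mutant CD8 SP libraries, against 491, 475 and 562 CPM in WT CD4 SP and 233, 237 and 237 CPM in WT CD8 SP libraries. Irf9 had a mutant difference of -0.09 ± 0.12 (adjusted p = 0.914) and a WT difference of 1.11 ± 0.12, and the difference of differences was -1.21 ± 0.17 (adjusted p = 0.000319). Irf7, which amplifies interferon production, and Usp18, which limits interferon signalling, had differences of differences of -1.34 ± 0.21 (adjusted p = 0.000761) and -1.92 ± 0.29 (adjusted p = 0.000482). The summed level was 2784 to 2851 CPM in mutant CD4+CD8+ libraries and 2629 to 2926 CPM in mutant CD8 SP libraries, against 4147 to 4744 CPM in WT CD4 SP and 1914 to 2707 CPM in WT CD8 SP libraries. WT CD4 SP libraries were thus above all others, and 14 of the 24 genes were called lower in mutant CD4+CD8+ than in WT CD4 SP cells.

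Metabolic genes and lineage factors changed in part. The counts below stand beside 2.44% of all genes tested called in the mutant difference, 18% in WT and 14.3% in the difference of differences. Of 23 glycolysis and hypoxia genes, 2 were called in the mutant difference. Ndrg1 was higher and Pdk1, a kinase that limits entry of pyruvate into mitochondria, lower in CD4+CD8+ cells. In the WT difference 9 were called, all lower in CD4 SP cells, and the difference of differences was called above 0 for 7 and below 0 for 1. The calls of Pdk1 were not held without single libraries, WT CD4 SP replicate 1 for the difference of differences and mutant CD8 SP replicate 2 for the mutant difference. Gapdh, a glycolytic enzyme, had a mutant difference of 0.33 ± 0.12 (adjusted p = 0.248) and a difference of differences of 1.39 ± 0.17 (adjusted p = 7.3e-05). Of 23 thymocyte transcription factor genes other than Zbtb7b and Runx3, Id2 and Klf2 were called in the mutant, both higher in CD4+CD8+ cells, 7 were higher and 5 lower in WT CD4 SP cells, and the difference of differences was called above 0 for 5 and below 0 for 5. With a replicate block 4 genes of this list were called in the mutant. Satb1, a chromatin organiser of thymocytes, had -0.25 ± 0.08 (adjusted p = 0.141) in the mutant and 0.71 ± 0.08 (adjusted p = 1.95e-05) in WT. Of 15 genes of the CD103 and TGF-beta pathway, the difference of differences was called above 0 for Itgae and Itgb7 and below 0 for Skil and Tgfbr3. That of Tgfbr3 was not held without any 1 of 7 libraries (adjusted p = 0.0505 to 0.0598). Itgb7, the partner chain of CD103, had a difference of differences of 0.82 ± 0.13 (adjusted p = 0.000574), far smaller than that of Itgae. Of 17 maturation and egress genes, 5 were called above 0 and 3 below 0, with 5 below 0 under a replicate block; Slfn1, a growth regulator of thymocytes and T cells, was lost at -2.08 ± 0.16 (adjusted p = 1.28e-06). Of the 17, 5 were higher and 1 lower in the mutant difference, and the count of higher ones was 1 without mutant CD8 SP replicate 3.

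**Figure D4:**
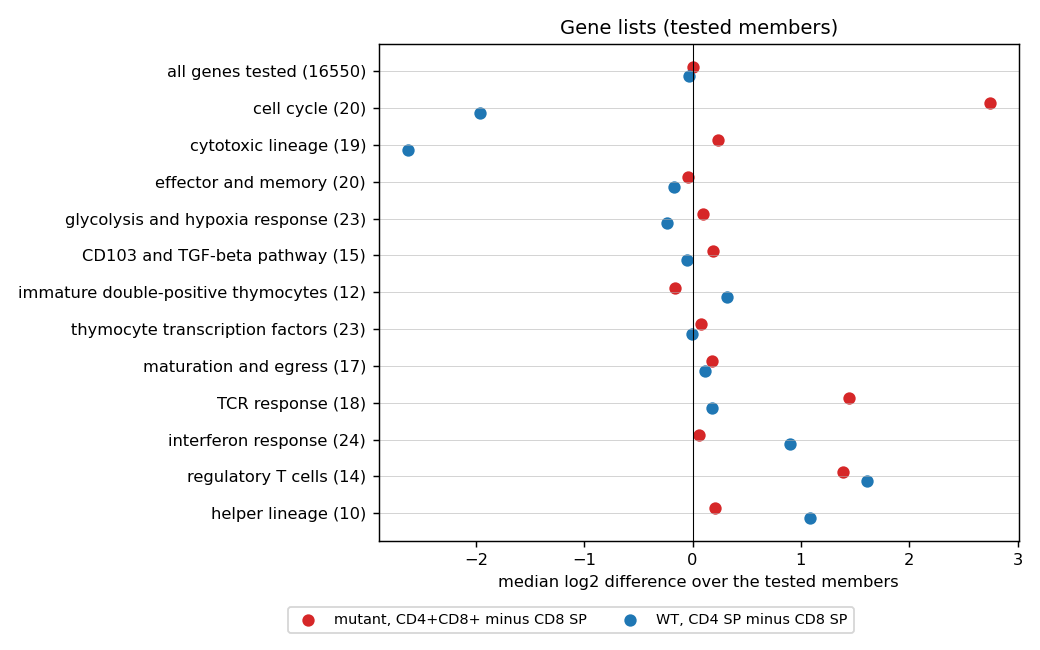
Median mutant difference (red, above) and WT difference (blue, below) over all genes tested and over the tested members of 12 gene lists, on a log2 x axis with 0 marked. The cell cycle list has medians of 2.74 and -1.96, the regulatory T cell list 1.38 and 1.61, and the helper list 0.20 and 1.08; Cd4, Cd8a, Cd8b1, Zbtb7b and Runx3 are left out of the lists that hold them.

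Few markers of other cells were called between the mutant groups, where few of all genes tested were called either (2.44%). Over all genes tested the WT difference was called for 18% and the difference of differences for 14.3%. Of 15 tested genes of NKT and innate-like T cells, 1 was called in the mutant difference, Eomes, and 2 were higher and 5 lower in the WT difference. The mutant call of Eomes was not held without any 1 of 10 libraries (adjusted p = 0.0504 to 0.203). The difference of differences was called above 0 for Cd160, Cxcr6 and Eomes and below 0 for Il17rb and Il4. With a replicate block 1 was called below 0, and the mutant difference was called for 1, lower. Without WT CD8 SP replicate 3 none was called below 0, and without WT CD4 SP replicate 1 the number lower in WT was 3. Cxcr6 is a chemokine receptor of such cells. Cxcr6 had 5.47, 5.43 and 6.62 CPM in mutant CD4+CD8+ libraries and 6.18, 16.5 and 18.3 CPM in mutant CD8 SP libraries, against 11.2, 18.2 and 29.2 CPM in WT CD4 SP and 194, 300.2 and 322 CPM in WT CD8 SP libraries. Cxcr6 was highest in WT CD8 SP cells. The summed level of the list was 354 to 371 CPM in mutant CD4+CD8+ libraries and 344 to 364 CPM in mutant CD8 SP libraries, against 246 to 322 CPM in WT CD4 SP and 566 to 709 CPM in WT CD8 SP libraries. Of 12 tested myeloid and dendritic genes edgeR called 0 in the difference of differences, with 1 above and 4 below 0 at an unadjusted p below 0.05, DESeq2 called 1 above and 2 below 0, limma 1 above and 1 below 0, and edgeR with a replicate block 1 below 0. Of 4 tested B cell genes Cd79b and Ighd were called, both above 0, and of 3 erythroid genes Hba-a1 and Hbb-bs, both below 0, with nearly all their counts in WT CD4 SP replicates 1 and 3. Of 4 tested genes of thymic stroma and epithelium, Col1a1 was called above 0, at 9.66, and Pecam1 below 0, at -0.58. The call of Pecam1 was not held without any 1 of 8 libraries (adjusted p = 0.051 to 0.0764 in edgeR). The part of these cells in the results above was not tested.

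**Figure D5:**
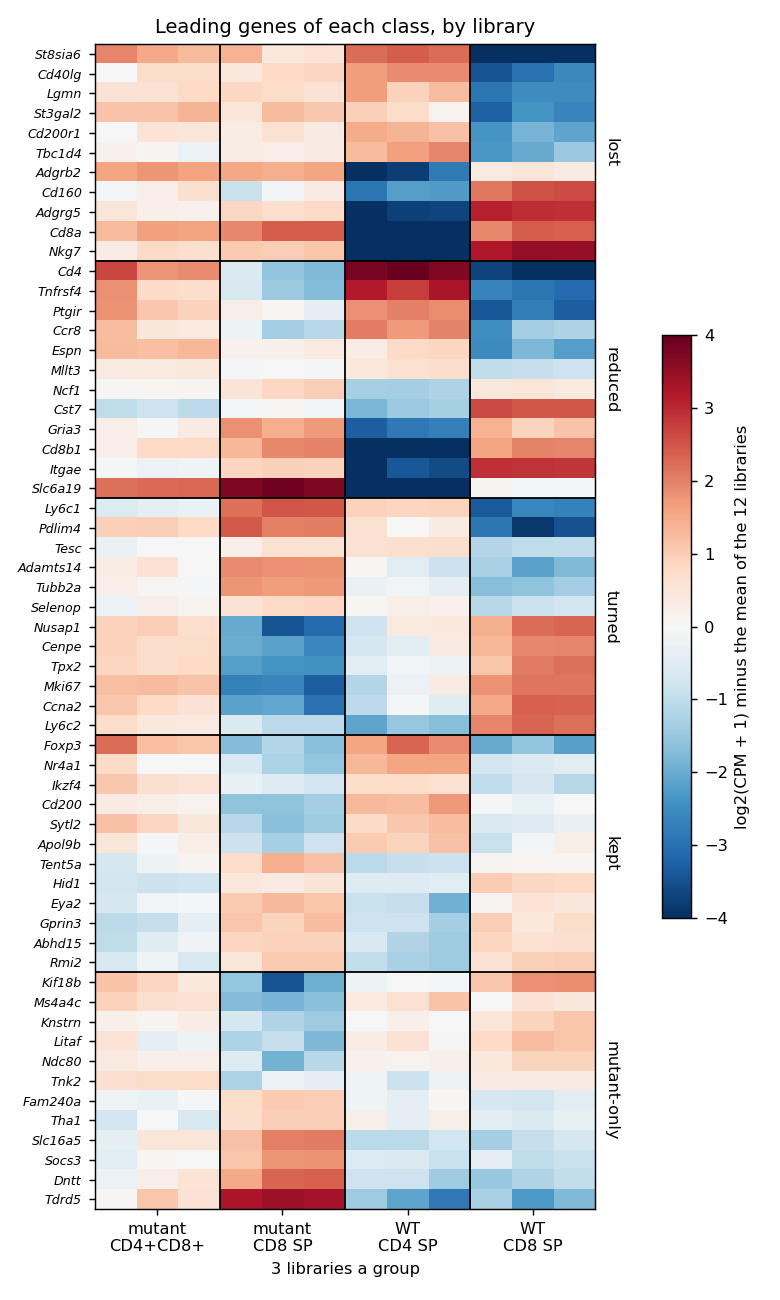
Rows are 59 named genes grouped by class and columns the 12 libraries, mutant groups left of WT groups; colour is log2(CPM + 1) minus the gene's mean over the 12 libraries, held to at most 4 units either way. In the rows of turned cell cycle genes such as Mki67 and Ccna2 the mutant CD8 SP columns are the lowest.

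Of the 1397 genes with a called WT difference of at least 2-fold, the 382 undecided ones can be placed in no class at this spread. The median mutant difference was 0.40 beside a WT difference of 1.86 in the 190 that were higher in WT CD4 SP cells, and -0.17 beside -1.95 in the 192 that were lower. The 403 genes called in the mutant difference were 140 turned, 36 kept, 22 reduced, 2 enlarged, 62 called in the mutant alone and 141 in no class, the last because WT or mutant differences were below 2-fold or the difference of differences was not called. Counted by sign alone, 82 of the 403 were also called in WT in the same direction and 175 in the opposite direction.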

How the data were processed

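RNA was sequenced from sorted thymocytes, with 15 libraries in 5 groups, of which 12 in 4 groups were compared. Per the labels' protocols, RNA was isolated with RNeasy Plus Micro columns and sequenced on a NovaSeq after SMARTer library preparation. Per the submitters' processing notes, the tools were STAR, HTSeq, Trimmomatic, bcl2fastq 2.17 and DESeq2 and the genome was mm39; what each tool did, the annotation and the strand setting are not stated there. Raw counts of reads per gene were deposited by the authors, with normalised values (FPM), which are CPM scaled by each library's gene total. Summary lines that name no gene held 15.9% to 21% of counted reads and were left out, as were 3 columns that no sample label here matches.

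Counts were fitted with edgeR 4.0.16 in R 4.3.3 (quasi-likelihood F test, TMM, filter at a minimum count of 10 and total of 15), all 15 libraries in 1 model of group means, with Benjamini-Hochberg adjustment over all 16550 genes tested. Standard errors are the log2 difference divided by the square root of F, written after ± beside a log2 value. Promoters were read with Python 3.11.15 and Biopython 1.88 from a RefSeq table on GRCm38.p6, not the authors' build, and figures were drawn with matplotlib 3.10.9. Alternatives were other size factors, no filter, DESeq2 1.42.0, limma 3.58.1 on log2 CPM plus 1, 4 groups in the fit, a replicate block, other thresholds and fold minimums, and libraries left out. The procedure was also run on simulated counts with independent libraries and changes in mutant CD4+CD8+ cells alone. That run lacked the WT differences and the shared deviations of these libraries, so it does not show how the procedure does here. Same-numbered libraries deviated together between the mutant groups (correlations 0.640, 0.207 and 0.325 over 8637 genes) and between mutant and WT CD8 SP groups (0.393, 0.113 and 0.332). Mutant libraries numbered 2 and 3 also deviated with each other across groups (0.326 and 0.230). So did mutant CD8 SP replicate 3 with WT CD8 SP replicate 2 (0.301). The check sets libraries numbered 1 apart in these groups and does not show that numbers 2 and 3 pair. The labels do not say what a number marks. Floors and intervals cover counting error or library spread only.

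Genes always named were Glipr2, Itgae, Ly6c1 and Ndrg1, given with the comparison, and Gata3, Zbtb7b, Runx3 and the coreceptor genes Cd4, Cd8a and Cd8b1. Added to these were up to 6 genes of each class and direction by size of the difference of differences (for kept genes, by the smaller of both differences) with a mean level of 3 or more on the log2 CPM scale and without overlap between groups, and up to 4 members of each list by smallest adjusted p. Not named were Xist, Y-linked genes, predicted models and receptor segments, and 1 gene chosen by the rule is not reported here. Prf1, Klrd1, Il2rb, Ighm, Ighd, Mcm2, Nrp1, Izumo1r, Far1, Stx1a and the further genes named beside small counts are outside this rule and were chosen after seeing their values. The members and lists were chosen with earlier results of these data known.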

Additional observations from a re-analysis of the deposited data

Results flagged for a closer look

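The CD4-linked difference differed between the mutant and WT by the test of the difference itself in 91 of the 116 named genes that also had more than 3 counts over the libraries of each of the 4 groups. Their difference of differences, mutant minus WT on the log2 scale, is given after each gene, and no explanation was weighed. Part of these genes was named for a large value. The lost, reduced, turned, enlarged and mutant-only classes require this call, and list members were named by its smallest adjusted p. The choice of genes thus largely fixes the count. Over all 16550 genes tested the call was made for 14.3%. Cd4, Cd8a and Cd8b1, listed below, were part of the gates and are no finding, and Zbtb7b and Runx3 were targeted.

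Among the lost genes, those below 0 were Zbtb7b (-7.74), St8sia6 (-7.71), Cd40lg (-5.32), Lgmn (-4.54), Tbc1d4 (-4.16), St3gal2 (-3.98), Cd200r1 (-3.98), Il17rb (-3.46), Il2ra (-3.25), Ctla4 (-2.34), Slfn1 (-2.08), Usp18 (-1.92), Cd1d1 (-1.72), Ifit1 (-1.71), Irf7 (-1.34), Irf9 (-1.21), Gata3 (-1.12) and Skil (-0.80). Lost genes above 0 were Nkg7 (8.25), Cd8a (7.66), Adgrg5 (6.82), Cd160 (5.87), Adgrb2 (5.47), Cd79b (4.99), Ccr9 (3.76), Runx3 (2.90), Cxcr6 (2.57), S100a11 (2.08), Mns1 (2.06) and Gapdh (1.39).

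Reduced genes below 0 were Cd4 (-5.48), Ptgir (-4.56), Tnfrsf4 (-3.91), Espn (-2.43), Ccr8 (-2.10) and Mllt3 (-1.08), and those above 0 were Slc6a19 (7.31), Itgae (5.64), Cd8b1 (4.97), Gria3 (3.76), Cst7 (3.28) and Ncf1 (1.12).

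Turned genes above 0 were Mki67 (6.79), Ccna2 (6.45), Nusap1 (6.31), Eomes (6.10), Ly6c2 (5.88), Cenpe (5.83), Tpx2 (5.79), Top2a (5.51), Cdk1 (5.38), Ikzf2 (4.90), Rrm2 (4.89), Glipr2 (4.27), Anxa2 (4.06), Lgals1 (3.42), Ndrg1 (2.82), H2-Q6 (2.75), Egr3 (2.70) and Id2 (2.25), and those below 0 were Ly6c1 (-7.77), Pdlim4 (-5.34), Adamts14 (-3.06), Tubb2a (-3.01), Tesc (-2.35), Selenop (-1.73) and Slfn2 (-1.68).

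Genes called in the mutant alone were Kif18b (5.40), Knstrn (2.36), Ms4a4c (2.33), Litaf (2.24), Tnk2 (2.11), Ndc80 (2.02), Tnfrsf9 (1.97) and Egr1 (1.35) above 0 and Tdrd5 (-2.34), Dntt (-2.16), Tha1 (-1.87), Socs3 (-1.75), Fam240a (-1.68) and Slc16a5 (-1.53) below 0. Named genes of no class were Vim (1.59), Tpi1 (1.29), Cd5 (0.98), Hsp90aa1 (0.97), Pgk1 (0.88), Itgb7 (0.82) and Zfp36 (0.64) above 0 and Tgfbr3 (-1.12), Satb1 (-0.96) and Pecam1 (-0.58) below 0.

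Some of these calls were not held when 1 library was left out. For the difference of differences the call was lost without any 1 of 9 libraries for Zfp36, 8 for Pecam1, 7 for Tgfbr3, 6 for Tdrd5 and 4 for Il17rb (adjusted p = 0.0505 to 0.108 in edgeR). The mutant call, on which the class rests, was not held without any 1 of 12 libraries for Slfn2, 10 for Eomes, 7 for Mllt3, 6 for Espn, 5 for Egr3 and Tnk2, 4 for Ccr8, Selenop, Slc6a19 and Tesc, 3 for Knstrn, 2 for Litaf and Ptgir and 1 for H2-Q6, Kif18b, Ncf1 and Ndc80 (adjusted p = 0.0504 to 0.21 in edgeR). The WT call of Egr3 was not held without any 1 of 5 others.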

How the results depend on the processing

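Of the 116 named genes, 95 were called for the difference of differences, and these kept its direction under every alternative that gave a value. For the others a change of sign was counted only where the alternative called the gene, and none was found. Changes of sign without a call were not counted. Among the values of all 116 genes, 2238 stayed on the same side of the threshold, 26 passed it anew and 56 no longer passed it. With relative log expression size factors the difference of differences was called for 2346 genes, the mutant difference for 397 and the WT difference for 2977, and the median over all genes moved to 0.01, against 0.04. The medians of the thymocyte transcription factor list, near 0, changed sign with it. Without a filter on low counts 59 genes were kept. DESeq2 called 771 genes in the mutant difference, with 41 reduced, 69 kept and 4 enlarged; limma gave 1 enlarged and 233 undecided. At an adjusted p below 0.01 the calls were 1094 for the difference of differences, 198 for the mutant and 1528 for the WT difference, with 496 lost, 11 reduced, 84 turned, 19 kept, 0 enlarged and 33 mutant-only genes. With no fold minimum 1737 genes were lost, 57 kept, 987 undecided and 105 mutant-only, and with a 4-fold minimum 330 were lost, 14 reduced, 79 turned, 11 kept, 1 enlarged, 180 undecided and 24 mutant-only. These minimums set how many genes enter. Without the 5 libraries numbered 1 there were 37 reduced genes, and 532 of 815 lost, 114 of 140 turned and 23 of 36 kept genes were in the same class; the cause was not tested for this or the other moved counts. Leaving out each library in turn gave 1609 to 2231 calls for the difference of differences, 216 to 419 for the mutant and 1908 to 2843 for the WT difference, and 637 to 892 lost, 11 to 24 reduced, 98 to 142 turned, 21 to 42 kept, 1 to 3 enlarged, 282 to 497 undecided and 30 to 85 mutant-only genes. With a replicate block the calls were 2899, 471 and 3523, with 868 lost, 28 reduced, 146 turned, 32 kept, 2 enlarged, 364 undecided and 61 mutant-only genes, all within 1.5 times; the counts of called list members that moved further are given beside those lists. Across WT groups same-numbered libraries did not all deviate together, with correlations of their deviations of 0.258, -0.101 and 0.222. Depth limits genes near the filter, and 3 libraries a group leave 382 genes undecided.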
